A study of Mus musculus with 2 samples.

Results

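The 8 genes described here move iron into, through and out of cells or store it: transferrin (Trf), transferrin receptor (Tfrc), ferritin heavy and light chain (Fth1 and Ftl1), ferroportin (Slc40a1), the divalent metal transporter DMT1 (Slc11a2), ceruloplasmin (Cp) and hephaestin (Heph). They were chosen by name from 32285 counted genes. Mouse retinae were taken from control mice after 18 h in the dark and from mice that, after the same 18 h, received white light of 5000 lux for 30 min and recovered for 6 h in dim light. All mice were 6 to 9 weeks old, labelled WT, of a Balb-C/CD1 background, carried floxed Tgfbr2 alleles and were homozygous for the leucine variant of RPE65. The study's methods describe these mice as functionally wild type. Retinae of 3 to 5 mice, with both sexes used, were pooled, and each condition gave 1 single-cell library made with the 10x Genomics v3.1 kit, which counts the 3′ ends of transcripts as unique molecular identifiers (UMIs). With 1 library per condition no test was possible. Every interval given is a 95% interval of counting error alone, without the spread between droplets, mice or libraries.

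Iron circulates bound to transferrin and enters cells through the transferrin receptor. DMT1 carries it out of endosomes into the cytosol, ferritin stores it, and ferroportin exports it with the help of the ferroxidases ceruloplasmin and hephaestin. Iron regulatory proteins bind hairpins in the messenger RNA, called iron-responsive elements: in iron-poor cells they block the translation of ferritin from the 5′ end and stabilize the transferrin receptor message from the 3′ end. In the retina, photoreceptors need iron for membrane turnover, and free iron is known to promote oxidative damage.

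The hairpins are shown because they are the known control elements of this family. A search of GENCODE transcripts (GRCm38) for the loop letters CAGTGN closed by 5 base pairs, with an unpaired C before the upper stem, found a match in an untranslated region of 4 of the 8 genes. Of 21877 coding genes, 160 held such a match, 0.731%. Capitals mark the loop, and each sequence is written 5′ to 3′ on the strand of the gene. Fth1 (chr19:9982731-9982760, + strand), Ftl1 (chr7:45459779-45459808, - strand) and Slc40a1 (chr1:45925465-45925494, - strand) held it in the 5′ untranslated region. Tfrc held 4 matches in its 3′ untranslated region on chromosome 16, + strand, at 32631218-32631247, 32631597-32631626, 32631662-32631691 and 32631709-32631738. The full pattern of loop, stem and C was not found in the untranslated regions of Slc11a2, Trf, Cp or Heph. A hairpin with a bulge or mismatch in the upper stem would be missed, so the lack of a match does not show the lack of an element.
Fth1: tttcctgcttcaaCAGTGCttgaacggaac
Ftl1: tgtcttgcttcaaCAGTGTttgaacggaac
Slc40a1: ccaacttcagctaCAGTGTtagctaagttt
Tfrc site 1: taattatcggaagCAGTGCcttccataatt
Tfrc site 2: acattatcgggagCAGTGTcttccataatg
Tfrc site 3: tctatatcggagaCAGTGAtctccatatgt
Tfrc site 4: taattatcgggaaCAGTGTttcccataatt

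Droplets were grouped without the 8 genes and named by marker genes, so each class is "like" a cell type. RPE-like droplets numbered 158 in control and 295 after light damage, Müller-like 44 and 47, microglia-like 10 and 43, and cone-like 163 and 92. Rod-like droplets were divided at 25% unspliced UMIs, which hold intron sequence, into 2456 and 1854 of low share and 781 and 3167 of high share. All 12 Müller, microglia and rod markers and all 9 cone markers had UMIs in their class in both libraries, as did 11 and 12 of the 12 RPE markers. Several measures moved with the condition. The median droplet held 2484 UMIs in control and 14237 in light-damaged Müller-like droplets, 2751 and 16688 in cone-like, 2984 and 10270 in microglia-like and 2649 and 5983 in RPE-like droplets. Free RNA, taken from barcodes under 50 UMIs, made up an estimated 61.9% of UMIs in the 10 control microglia-like droplets and 6.09% in the 43 light-damaged ones, 16.8% and 11.4% in Müller-like, 8.49% and 5.37% in RPE-like droplets and 0.433% to 2.40% in the photoreceptor classes. The summed Müller markers came to 23346 CPM (UMIs scaled to a common class total) in control and 13507 in light-damaged Müller-like droplets. Of these Glul alone was at 9104 and 1771, while Slc1a3 was at 1447 and 1235. The same sum was 12530 and 14653 in RPE-like droplets, so it is not particular to Müller cells. In Müller-like droplets the 5 endothelial markers came to 1675 and 1713 (mostly Flt1, at 1008 and 1165), and the 4 pericyte markers to 951 and 75.5. Xist, the RNA of the inactive X chromosome, had 3469 UMIs in control and 2 in light-damaged rod-like droplets of high unspliced share and 299 and 0 in Müller-like droplets, so the sex of the pooled mice cannot be told apart from the light exposure. The libraries shared 7 barcodes among the 3896 and 5934 that passed the UMI minimum.

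Transferrin, the carrier of iron in plasma and extracellular fluid, was an RPE-like transcript in both libraries. Trf took 12192 CPM of the class total in control (interval 11933 to 12455) and 14854 after light damage (14699 to 15010), from 8444 and 35133 UMIs. Single RPE-like droplets ran from 0 to 26936 CPM in control, median 10135, and from 0 to 47556 after light damage, median 14262. The droplets of both libraries overlapped over most of this range, and the ratio of the sums was 1.22-fold (1.19 to 1.25), or 0.40 on the log2 scale above the median gene of the class (over genes with at least 50 UMIs in each library). Against rod-like droplets of low unspliced share the RPE-like level was 2685-fold higher in control (1946 to 3816) and 971-fold higher after light damage (800 to 1192). After thinning every droplet to 1000 UMIs, 93.7% of control and 98.6% of light-damaged RPE-like droplets held a Trf UMI (99.4% and 99.3% unthinned), against 0.692% and 1.83% of low-unspliced rods (1.18% and 4.69% unthinned, at median depths of 2713 and 3142 UMIs).

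The other classes held far less Trf. By the estimates given above, the control level that free RNA would give lay within the counting interval of each of these classes. After light damage each class lay above it. For Müller-like and microglia-like droplets the estimate rests on rod genes. In control their RPE markers summed to 106 and 78.2 CPM, beside 32.5 and 91.9 in low- and high-unspliced rods. An estimate from RPE genes was not made for them. Whether free RNA accounts for the control Trf of these 2 classes was not tested. In free RNA Trf stood at 309 CPM in control (279 to 341) and 1511 after light damage (1464 to 1560). Müller-like droplets held 48.8 CPM in control (17.9 to 106), where free RNA alone would give 51.8, and 669 after light damage (591 to 755), where it would give 172. All 6 control UMIs came from 1 droplet and 33.5% of the 266 light damage UMIs from another, so the ratio of 13.7-fold (6.22 to 37.7) rested on few droplets, and among droplets under 5000 UMIs, where the control had none, it was a bound of 1.02 on the log2 scale in place of 3.78. Microglia-like droplets were at 391 (188 to 719, from 10 UMIs) and 333 (278 to 396), with 191 and 92.1 given by free RNA. Low-unspliced rods were at 4.54 (3.20 to 6.26) and 15.3 (12.5 to 18.6) beside a free RNA level of 3.32 and 8.51, high-unspliced rods at 10.7 (6.41 to 16.6) and 26.7 (23.7 to 29.9) beside 7.42 and 15.8, and cone-like droplets at 3.32 (0.403 to 12) and 15.9 (10.1 to 23.9) beside 2.75 and 6.54. The rods were thus past 2-fold higher after light damage, 3.37-fold (2.29 to 5.05) and 2.50-fold (1.57 to 4.22), while the free RNA level in them moved the same way; its part in the difference was not tested. Over the settings tried the log2 ratio ran from 0.90 to 2.47 in low-unspliced and from 0.89 to 1.73 in high-unspliced rods, so that neither was past 2-fold in all of them.

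**Figure D1:**
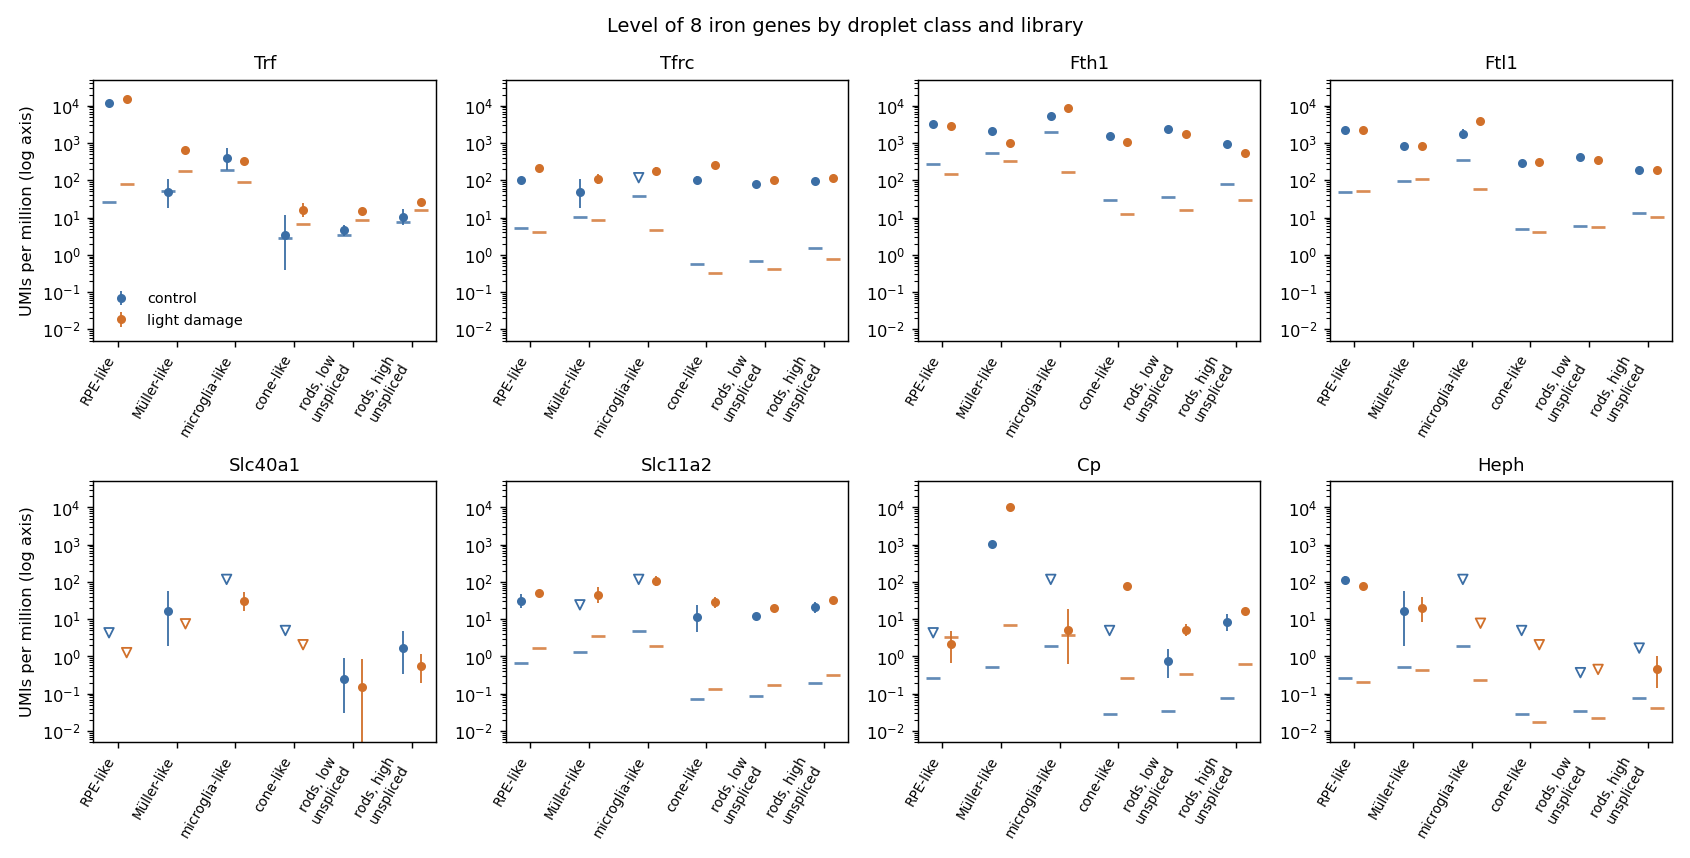
CPM of the class total (log axis) of each gene in 6 droplet classes of the control (blue) and light damage (orange) library; points are sums over a class with 95% Poisson intervals, horizontal dashes the level that free RNA would give, and open triangles the level that 3 UMIs would have where none was counted. Trf stood at 12192 and 14854 in RPE-like droplets, Cp at 1073 and 10219 in Müller-like droplets, and Slc40a1 at or near 0 in most classes.

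The uptake receptor was past 2-fold higher after light damage in cone-like and RPE-like droplets. Tfrc, the receptor that takes up transferrin, stood in cone-like droplets at 101 CPM in control (77.5 to 130) and 259 after light damage (234 to 287), from 61 and 375 UMIs. In RPE-like droplets it was at 99.6 (77.5 to 126) and 216 (198 to 236), from 69 and 511 UMIs. The intervals of both pairs were apart, with ratios of 2.56-fold (1.95 to 3.41) and 2.17-fold (1.68 to 2.83). Among droplets under 5000 UMIs the ratios were 3.07-fold in cone-like and 3.28-fold in RPE-like droplets, and from 5000 UMIs on 3.31-fold and 1.84-fold. The deeper RPE-like droplets, with 46 and 415 of the Tfrc UMIs, were thus not past 2-fold (log2 interval 0.44 to 1.35). The log2 ratio in cone-like droplets was 1.34 (0.75 to 1.96) under 25% unspliced UMIs and 1.66 (1.07 to 2.31) at or above it. Thinned to 1000 UMIs, 7.98% of control (4.31 to 13.3) and 25% of light-damaged cone-like droplets (16.6 to 35.1) held a Tfrc UMI, and 20.9% and 75.0% did so unthinned at the unequal depths given above.

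The other classes showed smaller or less certain Tfrc differences. Low-unspliced rods held 80.3 CPM in control (74.2 to 86.6) and 104 after light damage (96.5 to 112), and high-unspliced rods 97.5 (83.6 to 113) and 114 (108 to 120). These were ratios of 1.30-fold (1.16 to 1.45) and 1.17-fold (0.995 to 1.38), the latter with an interval that included no difference. Müller-like droplets were at 48.8 (17.9 to 106) and 111 (80.4 to 149), past 2-fold at 2.27-fold with an interval from 0.964 to 6.52. Microglia-like droplets had no Tfrc UMI in control, where 3 UMIs would be 117 CPM, and 70 UMIs or 182 CPM after light damage (142 to 230), at least 1.55-fold higher. In control all 6 classes formed a chain of overlapping intervals from cone-like to microglia-like droplets, so no order of neighbours was resolved. After light damage cone-like, RPE-like and microglia-like droplets each overlapped the next and stood above high-unspliced rods.

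Slc11a2, which encodes DMT1 and passes iron from endosomes to the cytosol, was low throughout. Its level in RPE-like droplets was 31.8 CPM in control (19.9 to 48.1) and 50.3 after light damage (41.7 to 60.2), a ratio of 1.58-fold (0.999 to 2.62). Low-unspliced rods were at 11.9 (9.65 to 14.5) and 20.2 (17.0 to 24.0), and high-unspliced rods at 20.7 (14.6 to 28.6) and 32.9 (29.6 to 36.5). The rod ratios were 1.70-fold (1.30 to 2.23) and 1.59-fold (1.13 to 2.29), both under 2-fold with intervals above 1. In cone-like droplets 7 UMIs gave 11.6 CPM (4.68 to 24.0) and 41 UMIs gave 28.4 (20.4 to 38.5), too few in sum for the 50-UMI minimum. Müller-like droplets had none in control and 18 UMIs after light damage, 45.3 CPM (26.8 to 71.6), at least 1.86-fold higher. Microglia-like droplets had none in control and 42 UMIs after light damage, 109 CPM (78.8 to 148), below the 117 that 3 UMIs would have been in control, so a difference was not detectable there.

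Storage genes differed in direction between classes. Fth1, the ferritin chain that oxidizes iron on entry, was lower after light damage in both rod classes, in cone-like and in Müller-like droplets. It stood at 2387 CPM in control (2354 to 2421) and 1728 after light damage (1697 to 1760) in low-unspliced rods, a ratio of 0.724 (0.707 to 0.741). High-unspliced rods were at 937 (892 to 983) and 550.1 (536 to 564), a ratio of 0.587 (0.556 to 0.620). In both the interval lay below 1, and relative to the median gene the log2 differences were -0.63 and -0.79. Cone-like droplets held 1572 (1473 to 1676) and 1045 (993 to 1099), a ratio of 0.665 (0.612 to 0.722). Müller-like droplets held 2105 (1857 to 2378) and 1011 (915 to 1115), a ratio of 0.480 (0.410 to 0.564) that was past 2-fold lower. Relative to the median of the 285 genes with at least 50 UMIs in each library, which was itself lower by 0.48, Fth1 stood at -0.58. The median over all 2189 genes with 50 UMIs in sum was 0.15, so the size of this difference depends on the genes it is set against.

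Depth moved with these ferritin values. Among droplets under 5000 UMIs the Fth1 ratio was 1.05-fold in Müller-like droplets (log2 interval -0.44 to 0.59, 32 control and 12 light-damaged droplets) and 1.03-fold in cone-like droplets (-0.26 to 0.34, 131 and 23 droplets), so among these 2 depth groups the lower level was seen in the deeper droplets, at 0.444-fold and 0.726-fold. RPE-like droplets held 3267 CPM of Fth1 in control (3134 to 3405) and 2936 after light damage (2867 to 3006), a ratio of 0.899 (0.857 to 0.943) that was -0.04 on the log2 scale relative to the median gene. Under 5000 UMIs this ratio was 0.655. In free RNA Fth1 was at 3243 CPM in control and 2819 after light damage.

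In microglia-like droplets both ferritin chains were higher after light damage. Fth1 stood at 5201 CPM in control (4355 to 6164) and 8844 after light damage (8549 to 9146), and single droplets ran from 0 to 14633 in control, median 3955, and from 0 to 60593 after light damage, median 7125. Ftl1, the chain that forms the iron core, was at 1760 (1284 to 2355) and 3952 (3756 to 4156). The ratios were 1.70-fold (1.43 to 2.04) and 2.25-fold (1.67 to 3.09), and the droplets of both libraries overlapped for Fth1. The control value rests on 10 droplets with 133 Fth1 and 45 Ftl1 UMIs, of which 1 droplet gave 33.1% and 35.6%. Droplets of 50% or more free RNA by the rod gene estimate were then left out, which left 4 control and 41 light-damaged droplets. The log2 ratios were 0.23 and 0.02, and Ftl1 was no longer past 2-fold. The Fth1 log2 ratio ran from -2.94 to 1.44 over the settings tried, negative where a control droplet of 54735 UMIs, described next, fell in the microglia-like cluster.

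That droplet lay in a rod cluster and was set aside because rod markers made up under 1% of its UMIs. It held 4981 Fth1 UMIs, 20.4% of the Fth1 UMIs of control low-unspliced rods when added to them. Besides Fth1, its most abundant transcripts were Malat1, Gsto1, Tmsb4x, S100a6, Prss22 and Pglyrp1. None of these is in the rod or microglia marker list, and the cell type of the droplet was not named. With it kept, the log2 Fth1 ratio in low-unspliced rods was -0.79 in place of -0.47, the same direction.

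Outside microglia-like droplets the Ftl1 sums of a class differed little between libraries, but not at each depth. RPE-like droplets were at 2212 CPM in control (2103 to 2326) and 2261 after light damage (2201 to 2322), a ratio of 1.02-fold (0.966 to 1.08). Müller-like droplets were at 837 (683 to 1015) and 835 (748 to 930), cone-like droplets at 299 (257 to 346) and 301 (273 to 330.5), and high-unspliced rods at 189 (170 to 211) and 186 (178 to 195). Among droplets under 5000 UMIs Ftl1 was 4.04-fold higher in Müller-like (log2 interval 1.25 to 2.84, from 20 and 53 UMIs) and 1.68-fold higher in cone-like droplets (0.09 to 1.37), and in deeper Müller-like droplets the ratio was 0.767 (-0.74 to -0.01). Over whole classes only low-unspliced rods had intervals apart, 424 (410 to 438) and 341 (327 to 355), a ratio of 0.803 (0.762 to 0.847). Ftl1 was highest in RPE-like and microglia-like droplets, whose intervals overlapped in control and of which the microglia-like were higher after light damage. Müller-like droplets, low-unspliced rods, cone-like droplets and high-unspliced rods followed in both libraries, with overlap only of low-unspliced rods and cone-like droplets after light damage. Ferritin genes have processed copies in the mouse genome, so their counts may include or lose reads shared with those copies.

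Cp encodes ceruloplasmin, the multicopper ferroxidase that oxidizes iron leaving ferroportin and was higher after light damage in Müller-like droplets, the class of its highest level in both libraries. In Müller-like droplets it stood at 1073 CPM in control (898 to 1272) and 10219 after light damage (9907 to 10538), from 132 and 4062 UMIs. Single droplets ran from 0 to 3650 in control, median 1038, and from 0 to 30901 after light damage, median 8722. The ratio was 9.52-fold (8.01 to 11.4), and the highest light-damaged droplets lay well above every control droplet, while droplets without a Cp UMI occurred in both libraries. Free RNA would give 0.532 and 7.06 CPM in this class. Thinned to 1000 UMIs, 69.0% of control (49.2 to 84.7) and 70.2% of light-damaged droplets (55.1 to 82.7) held a Cp UMI (72.7% and 83.0% unthinned), with 15 control droplets too shallow to be thinned and 0.670% and 1.37% in high-unspliced rods. The intervals of the thinned shares overlapped, while those of the levels were far apart.

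The Cp difference in Müller-like droplets was unequal between depths. Under 5000 UMIs, Cp was at 922 CPM in 32 control droplets (642 to 1282) and 1647 in 12 light-damaged droplets (1182 to 2234), 1.79-fold with a log2 interval of 0.15 to 1.53. From 5000 UMIs on it was at 1141 in 12 control droplets (925 to 1391) and 10792 in 35 light-damaged droplets (10461 to 11131), 9.46-fold. Under 5000 UMIs the Müller markers summed to 21750 CPM in control and 6829 after light damage, and the rod markers to 37786 and 17716. In the deeper droplets the Müller markers summed to 24058 and 13954 CPM, the endothelial markers to 2058 and 1798, and the astrocyte markers to 165 and 389. Gfap, the filament protein of reactive Müller cells and astrocytes, was at 40.6 and 319.5 over all Müller-like droplets. Glul, the Müller marker with the fall given above, was not counted by depth. The part of depth and of these markers in the Cp difference was not tested.

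**Figure D2:**
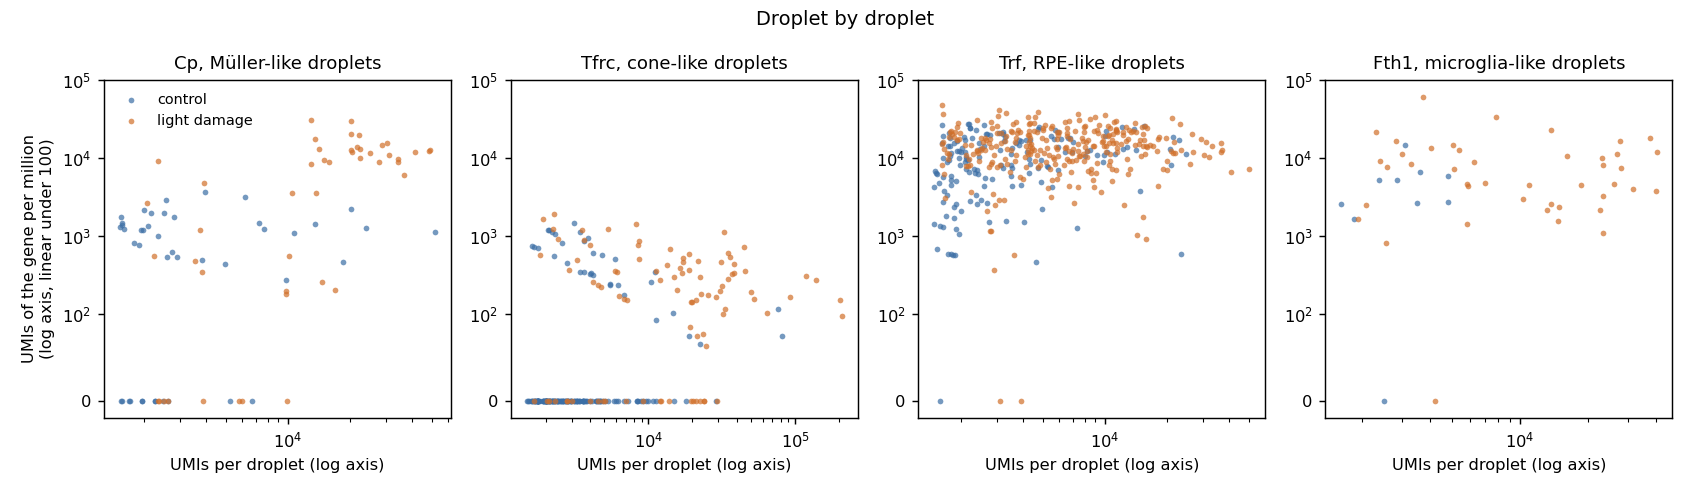
Each point is 1 droplet of the control (blue) or light damage (orange) library, with its total UMIs (log axis) against the UMIs of the gene as CPM of its spliced and ambiguous UMIs (log axis, linear under 100). Cp reached 3650 CPM in control and 30901 in light-damaged Müller-like droplets, mostly in deep ones; Tfrc in cone-like, Trf in RPE-like and Fth1 in microglia-like droplets overlapped between libraries.

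Cp was low in the other classes. Cone-like droplets had no Cp UMI in control and 113 after light damage, 78.1 CPM (64.4 to 93.9), at least 15.7-fold higher. Of these, 74.3% came from 1 droplet, and the 29 UMIs left without it fell under the 50-UMI minimum, at least 4.31-fold higher. Low-unspliced rods held 0.736 CPM (0.270 to 1.60) and 5.25 (3.66 to 7.30), from 6 and 35 UMIs, and high-unspliced rods 8.41 (4.71 to 13.9) and 16.5 (14.2 to 19.1), a ratio of 1.97-fold (1.16 to 3.59) that became -0.06 on the log2 scale with unspliced UMIs counted. RPE-like droplets held 0 and 5 Cp UMIs and microglia-like droplets 0 and 2. In free RNA Cp was at 3.18 CPM (0.865 to 8.13) and 61.9 (52.6 to 72.3), and it would give at most 3.77 in any of these classes after light damage.

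Heph and Slc40a1, the other ferroxidase and the exporter, had few UMIs outside RPE-like droplets for Heph and in all classes for Slc40a1. Heph, which is membrane bound and on the X chromosome, was at 116 CPM in control (91.6 to 144) and 75.7 after light damage (65.0 to 87.6) in RPE-like droplets, a ratio of 0.655 (0.501 to 0.864). With droplets named singly, which left 44 and 31 RPE-like droplets, the log2 ratio was 0.18 in place of -0.61. Xist had 9 UMIs in control and 1 after light damage in the same droplets. Against low-unspliced rods, where no Heph UMI was counted, the RPE-like level was at least 314-fold higher in control and at least 168-fold higher after light damage. Müller-like droplets held 2 and 8 Heph UMIs, high-unspliced rods 0 and 5, and the other classes none. Slc40a1 had 12 UMIs in light-damaged microglia-like droplets, 31.2 CPM (16.1 to 54.6), spread over 18.6% of the 43 droplets, and none in control, where 3 UMIs would be 117 CPM. Müller-like droplets held 2 and 0 Slc40a1 UMIs, low-unspliced rods 2 and 1 and high-unspliced rods 3 and 6. RPE-like and cone-like droplets had no Slc40a1 UMI in either library, which allows at most 4.33 CPM in control and 1.27 after light damage in RPE-like droplets. At this depth ferroportin was therefore not detectable in RPE-like droplets.

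The member counts were read against all genes of the same class. Past 2-fold means a log2 ratio of at least 1 in size with at least 50 UMIs over both libraries, and a class at 0 was set to 3 UMIs. In RPE-like droplets 1 of 6 measured members (Tfrc) was higher and none lower, where 10.8% of all genes were higher and 4.25% lower. In Müller-like droplets 3 of 5 (Trf, Tfrc and Cp) were higher and 1 (Fth1) lower, beside 24.7% and 10.5% of genes. Of 4 in microglia-like droplets 1 (Ftl1) was higher and none lower, beside 31.2% and 12.4%. In cone-like droplets 2 of 4 (Tfrc and Cp) were higher and none lower, beside 13.3% and 2.63%. Low-unspliced rods had 1 of 5 (Trf) higher and none lower, beside 3.35% and 0.778%, and high-unspliced rods 1 of 6 (Trf) and none, beside 8.27% and 2.63%. Several members counted as higher reached the 50-UMI minimum only with the UMIs of the light-damaged droplets. In control Trf and Tfrc had 6 UMIs each in Müller-like droplets and Cp had 0 in cone-like droplets. Ftl1 had 45 in microglia-like droplets, and Trf had 37 in low-unspliced and 19 in high-unspliced rods. The same minimum was applied to all genes. Over genes with at least 50 UMIs in each library the median log2 ratio was -0.11 in RPE-like (2080 genes), -0.48 in Müller-like (285 genes) and -0.68 in microglia-like droplets (80 genes), and 0.16 in low-unspliced rods (7726 genes). Over all genes with 50 UMIs in sum, which lets in genes low in the shallower control classes, the same medians were 0.04, 0.15, 0.46 and 0.16, so that the sign in the first 3 classes depends on the genes taken.

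**Figure D3:**
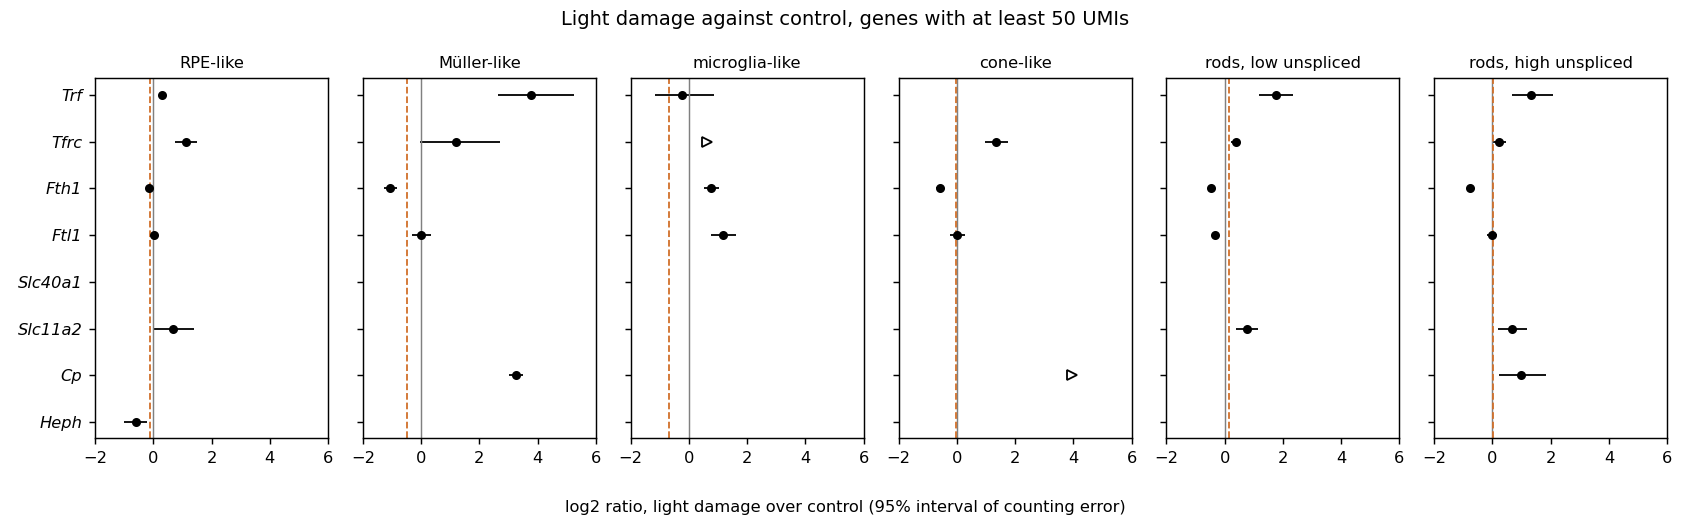
Log2 ratio of light damage over control in each class for members with at least 50 UMIs, with 95% intervals of counting error; open triangles are lower bounds against a control of 0 UMIs, the grey line is no difference and the dashed line the median of genes with at least 50 UMIs in each library. Cp and Trf stand farthest to the right in Müller-like droplets, at 3.25 and 3.78, and Fth1 lies left of 0 in all classes but the microglia-like.

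Several rod clusters were mostly of 1 library, which touches the rod values above. Of the 2 largest low-unspliced clusters 1 was balanced, with 941 control and 958 light-damaged droplets, and the other held 1570 and 375. The cluster with most control high-unspliced rods held 646 control and 128 light-damaged droplets, and the main light-damaged clusters held 52 and 1644 and 3 and 1139. Within the control library high-unspliced rods held less ferritin than low-unspliced rods, 0.392-fold for Fth1 (0.373 to 0.412) and 0.447-fold for Ftl1 (0.398 to 0.50). After light damage the same ratios were 0.318 (0.309 to 0.328) and 0.547 (0.515 to 0.581). Tfrc differed less between the rod classes, 1.22-fold in control (1.02 to 1.44) and 1.09-fold after light damage (0.996 to 1.20).

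Unspliced UMIs, which come from intron-holding RNA, were counted as CPM of all UMIs of the class. Cp had 230 in control and 3255 after light damage in Müller-like droplets, 902 and 4148 CPM, a log2 ratio of 2.20 (2.01 to 2.40) in the same direction as the spliced UMIs. High-unspliced rods held 155 and 759 unspliced Cp UMIs, 38.5 and 32.7 CPM, a log2 ratio of -0.24 with an interval of -0.49 to 0.02. Cone-like droplets held 9 and 92, 11.0 and 40.9 CPM, a log2 ratio of 1.89 (0.90 to 3.06). The summed intron-holding RNA of Cp was thus higher in Müller-like and cone-like droplets and not in high-unspliced rods. Most spliced Cp UMIs of the cone-like class came from 1 droplet, and the spread of its unspliced ones over droplets was not counted. In the same class the Müller markers summed to 422 CPM in control and 669 after light damage, and the endothelial markers to 4.99 and 33.2. After light damage the latter were 30 Flt1, 14 Kdr and 4 Pecam1 UMIs, with 0 of Cldn5 and Cdh5. In light-damaged Müller-like droplets Flt1 and Kdr were at 1165 and 511 CPM, and Cldn5, Cdh5 and Pecam1 at 20.1, 12.6 and 5.03. The part of RNA from other cell types in the cone-like Cp difference was not tested. Heph had 150 unspliced UMIs in control low-unspliced rods and 103 after light damage, 17.2 and 14.4 CPM, although no spliced or ambiguous Heph UMI was counted in those droplets. Tfrc had 42 and 350 in high-unspliced rods, a log2 ratio of 0.53 (0.06 to 1.03), and Fth1 had no unspliced UMI in any class. Unspliced UMIs went against the spliced direction for Slc11a2 in high-unspliced rods, with 35 and 120 and a log2 ratio of -0.75 (-1.31 to -0.17), and for Tfrc in Müller-like droplets, with 6 and 2 and -3.21 (-6.55 to -0.72). Heph in Müller-like droplets had 19 and 8 unspliced UMIs, -2.87 (-4.27 to -1.61), beside a spliced ratio of 0.31 (-2.02 to 3.58). Trf in high-unspliced rods, higher in spliced UMIs, had 10 and 28 unspliced ones, -1.05 with an interval of -2.13 to 0.16.

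**Figure D4:**
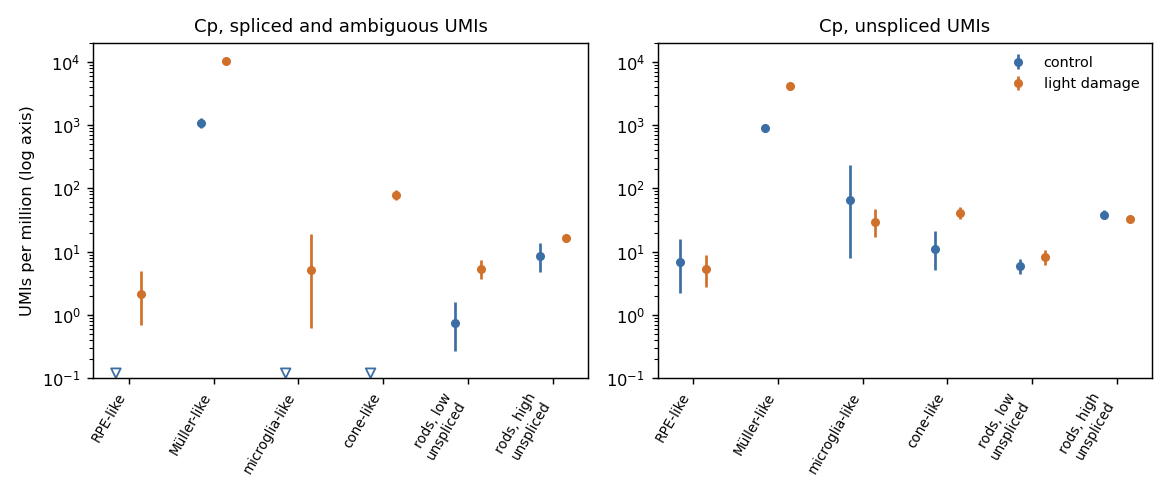
Cp in 6 droplet classes of the control (blue) and light damage (orange) library, on log axes: left, spliced and ambiguous UMIs as CPM of the class total of those UMIs; right, unspliced UMIs as CPM of all UMIs; bars are 95% Poisson intervals and open triangles mark 0 UMIs. Müller-like droplets stood at 1073 and 10219 on the left and at 902 and 4148 on the right, above the other classes in both.

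Other iron genes were read from a list of 52, of which 51 were found among the counted genes. In RPE-like droplets 31 reached 50 UMIs and 3 were past 2-fold higher: Hmox1, the enzyme that breaks down heme, at 5.78 and 118 CPM, Lcn2, a siderophore-binding protein, with 0 and 321 CPM and at least 74.2-fold higher, and Flvcr2, a heme and choline transporter, at 280.1 and 647. None was lower, beside 10.8% of all genes higher and 4.25% lower, and the list's median log2 ratio was -0.00 beside 0.04 over all genes with 50 UMIs in sum. In Müller-like droplets 9 were measured, of which Lcn2 (0 and 805 CPM, at least 33.0-fold) and Hmox1 (0 and 262, at least 10.7-fold) were higher and Lrp1, a receptor that clears heme with hemopexin, was lower at 293 and 78.0. The list's median there was 0.06 beside 0.15 over all genes with 50 UMIs in sum, of which 24.7% were higher and 10.5% lower. The counts of the list were near these shares in both classes. In both classes the genes past 2-fold thus included Hmox1 and Lcn2, each at 0 to 4 UMIs in control. Both reached the 50-UMI minimum only through the light-damaged droplets.

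Of the iron list, Slc25a37 alone was past 2-fold higher in all photoreceptor classes. This mitoferrin, which carries iron into mitochondria, was at 7.85 and 30.1 CPM in low-unspliced rods, 33.6 and 146 in high-unspliced rods and 19.9 and 85.1 in cone-like droplets, log2 ratios of 1.94, 2.11 and 2.09. The 5 red blood cell markers summed to 74.1 and 16.2 CPM in low-unspliced rods, 13.5 and 631 in high-unspliced rods and 0 and 5.53 in cone-like droplets. The part of red blood cell RNA in these ratios was not tested. Hfe, a partner of the transferrin receptor, was at 22.5 and 7.95 in low-unspliced and 19.1 and 5.51 in high-unspliced rods. The remaining genes past 2-fold were Ncoa4, the receptor that sends ferritin to degradation, at 21.6 and 43.6 in cone-like droplets, and in high-unspliced rods Hmox1 (1.12 and 5.96, from 2 and 66 UMIs) and Slc22a17, a lipocalin receptor (44.8 and 16.4). Counted by class, 1 of 27 was higher and 1 lower in low-unspliced rods, 2 of 28 and 2 in high-unspliced rods, and 2 of 17 and none in cone-like droplets. Over all genes 3.35%, 8.27% and 13.3% were higher in these classes, so the counts of higher genes were near the background. The shares of all genes that were lower were 0.778%, 2.63% and 2.63%. The counts of lower genes in the list, at most 2 per class, are too small to set against them. Their medians were 0.22, 0.11 and 0.10 beside 0.16, 0.09 and 0.20 over all genes. Of 7 measured in microglia-like droplets 4 were higher (Bach1, App, Slc11a1 and Lrp1, each from 1 to 3 control UMIs) and Pcbp2, an iron chaperone, lower, with a median of 1.36 beside 0.46 and with 31.2% of all genes higher and 12.4% lower.

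The genes most like each member over the 12 values of 6 classes in both libraries were taken from 7649 genes with at least 500 UMIs, by Pearson's r of log2(CPM + 1). The points share library and depth, so r is a description. For Trf these were Lrp10 (0.97), Degs1 (0.96) and Cers2 (0.95), and for Heph Met (0.99), Tmem56 (0.99) and Parm1 (0.98). For Cp they were Adamts5 (0.98), Flt1 (0.97) and Crym (0.96), of which Crym is in the Müller and Flt1 in the endothelial marker list. Tfrc was nearest to Msl3 (0.99), Ppp6c (0.98) and Eloa (0.98), and Slc11a2 to Plekhm2, Timm8a1 and Man1b1 (0.97 each). Fth1 was nearest to Sec61b (0.94), Rpl31 and Rpl18 (0.93 each), and Ftl1 to Rps27l, Ppia and Reep5 (0.95 each). Slc40a1 had under 200 UMIs over the classes and was left out.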

How the data were processed

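Single-cell libraries of control and light-damaged retinae, 1 per condition, were analysed. The authors deposited raw UMI counts per barcode and feature, with spliced, unspliced and ambiguous UMIs apart. Per the study's methods and the submitters' processing notes these came from Cell Ranger 7.0.1, Salmon 1.10.1 and alevin-fry 0.8.1 on mm10, with no filter on barcodes. The lists of barcodes and features served only as indices. Gene names came from GENCODE for 32235 of 32285 genes.

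Barcodes above the inflection of the rank curve (1464 UMIs in control, 1614 in light damage) with under 10% mitochondrial UMIs were kept. Scrublet scores were computed, and as its own cut marked just 1 and 0 droplets, the highest 0.8% per 1000 droplets were left out (114 and 276). This left 3669 and 5593 droplets. They were normalized to 10000 UMIs and clustered with scanpy 1.11.5 (2000 variable genes without the iron genes, 50 components, 15 neighbours, Leiden resolution 1, seed 0). Clusters were named by marker score, which needed 3 markers each detected in 10% of droplets, and 1 cluster led by mitochondrial genes stayed unnamed. These names were rebuilt here and may differ from those of the study.

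Values are spliced plus ambiguous UMIs scaled to a common class total (CPM), with exact Poisson intervals. Ratios have exact conditional binomial and shares exact Clopper-Pearson intervals. All are at 95% and cover counting error only. A class at 0 was set to 3 UMIs, so that its ratio is a bound. The libraries held 30605284 and 54413601 UMIs in all. Calculations were tested on simulated Poisson counts, which hold no added spread between droplets. The text names all 8 members, the genes of a fixed iron list past 2-fold (at most 5 per class) and the 3 genes most like each member. The members and lists were chosen with earlier results of these data known.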

Additional observations from a re-analysis of the deposited data

Results flagged for a closer look

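In sums over whole classes, ferritin genes differed in opposite directions between classes. The log2 ratio of light damage over control for Fth1 was 0.77 in microglia-like droplets, and -0.15 in RPE-like, -1.06 in Müller-like and -0.59 in cone-like droplets, -0.47 in rods of low and -0.77 in rods of high unspliced share. For Ftl1 it was 1.17 in microglia-like droplets and -0.32 in rods of low unspliced share. Each of these intervals of counting error lay on 1 side of 0, but with 1 library per condition the difference between classes was not tested. Over the settings tried, the microglia-like ratio ran from -2.94 to 1.44 for Fth1 and from 0.02 to 2.86 for Ftl1. Among droplets under 5000 UMIs the Fth1 ratio was 0.08 in Müller-like and 0.05 in cone-like droplets.

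The bipolar- and amacrine-like droplets entered no comparison above, and the share of all genes past 2-fold was not counted for them. Their median droplet held 2192 UMIs in control and 19428 after light damage, and the part of depth in the values below was not tested. Tfrc was at 69.6 CPM in control and 235 after light damage, from 6 and 39 UMIs, a log2 ratio of 1.76 (0.51 to 3.29). Cp had no UMI in control, where 3 UMIs would be 34.8 CPM, and 16 UMIs or 96.5 CPM after light damage. In the same droplets Fth1 was lower after light damage, at 1113 and 579 CPM (log2 -0.94, -1.37 to -0.52), as was Ftl1, at 742 and 440.2 CPM (-0.75, -1.26 to -0.25). These values come from 39 control and 17 light-damaged droplets and were not tested.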

How the results depend on the processing

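No paired analysis was possible because each condition had 1 library. Of the member counts past 2-fold recomputed under other settings, 62 stayed within 1.5 times the value given and 22 did not. In microglia-like droplets the count of 1 became 4 with a minimum of 1000 UMIs or a mitochondrial share under 5%, 3 after centring on the median gene, 2 when droplets were named singly or the droplet richest in each gene was left out, and 0 with free RNA subtracted, with droplets of 50% or more free RNA left out or with unspliced UMIs counted. In high-unspliced rods 1 became 0 at Leiden resolution 2 or with unspliced UMIs, and 2 with a mitochondrial share under 5%, spliced UMIs alone, no UMI minimum, droplets named singly or the richest droplet left out. In cone-like droplets 2 became 4 with no UMI minimum and 1 when droplets were named singly or the richest droplet was left out. In Müller-like droplets 4 became 2 with unspliced UMIs or without the richest droplet, in RPE-like droplets 1 became 0 when droplets were named singly, and in low-unspliced rods 1 became 2 with no UMI minimum.

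Of the light damage ratios 529 stayed within their counting interval and 75 moved. Of those past 2-fold 1 changed sign, Fth1 in Müller-like droplets under 5000 UMIs (log2 0.077 in place of -1.06). Ratios under 2-fold whose interval had lain on 1 side of 0 also did: Fth1 in microglia-like (down to -2.94) and cone-like droplets (0.05), Heph in RPE-like droplets (0.18) and Cp in high-unspliced rods (-0.06). The splits by depth and unspliced share, and the keeping of rod-cluster droplets poor in rod markers, were chosen after seeing the data. The cause of these differences was not tested. Depth limits the 10 control microglia-like droplets most, where 3 UMIs are 117 CPM.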
